A study of Homo sapiens with 8 samples.

Results

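Chromatin accessibility was described at 30 genes of cholesterol synthesis and sterol sensing in HepG2, a human liver cancer cell line. The genes were listed by their known role in the pathway and not by a threshold on measured values, although the list was drawn up with earlier results of these data known. They are 30 of the 20033 protein-coding genes of GENCODE 44 on chromosomes 1-22, X and Y. A peak was assigned to a gene when its summit, the position of highest signal, lay in the gene or within 20 kb of it, which gave 133 of the 60628 peaks. Each peak was then called a TSS peak (summit within 1000 bp of the transcription start site of the canonical transcript), a gene body peak or a flank peak.

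The bulk experiment held 8 libraries of wild-type HepG2 cells grown in medium with 10% FBS, 1 for each combination of 0.1, 0.5, 1 or 5% formaldehyde (FA) with cryopreservation or flash freezing. ATAC-seq marks open chromatin by inserting adapters with the Tn5 transposase. The peak list of the cryopreserved library fixed with 0.1% FA was analysed here, and the other libraries were not. No replicate was analysed, so no value carries a replicate error, no test was made, and intervals for shares are exact binomial at a 95% level and cover counting error only.

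Cells hold their cholesterol level by a feedback loop. When sterols are scarce in the endoplasmic reticulum, SCAP escorts the SREBP transcription factors to the Golgi, where proteases release their active part. When sterols are plentiful, the INSIG proteins hold SCAP back. Free SREBP binds the sterol response element (SRE) near the start of genes for sterol synthesis and uptake, and it is known to act together with the factors NFY and SP1. The liver is a main site of cholesterol synthesis, so hepatocyte-like cells are a usual model for the pathway. Open chromatin at a promoter does not give the amount of RNA, which was not analysed here.

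The sequences that carry the motif findings are shown first. Capitals mark the SRE, searched as TCACNCCAC, and the NFY motif, searched as CCAAT and read as ATTGG on the other strand. All sequences are from GRCh38, are written 5′ to 3′ on the strand of the gene, and cover the matches within 100 bp of a summit. The first set holds every SRE match found at a peak of the 30 genes, each with an NFY match beside it: SREBF2 (chr22:41832960-41833015, plus strand), HMGCS1 (chr5:43313651-43313814, minus strand) and a peak upstream of SREBF1 (chr17:17840196-17840249, minus strand).
SREBF2: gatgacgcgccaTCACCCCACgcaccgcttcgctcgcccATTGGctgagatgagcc
HMGCS1: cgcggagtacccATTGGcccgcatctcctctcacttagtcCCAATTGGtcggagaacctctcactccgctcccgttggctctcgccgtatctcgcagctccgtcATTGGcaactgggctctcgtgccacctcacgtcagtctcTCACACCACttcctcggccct
SREBF1: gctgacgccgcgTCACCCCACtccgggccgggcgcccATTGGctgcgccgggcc
In HMGCS1 the run CCAATTGG holds overlapping NFY matches, 1 on each strand, and both were counted.

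The next set shows TSS peaks with repeated NFY matches and no SRE match: MVK (chr12:109573625-109573764, plus strand), MVD (chr16:88663160-88663262, minus strand), MSMO1 (chr4:165327472-165327651, plus strand), GGPS1 (chr1:235328277-235328346, plus strand), STARD4 (chr5:111512649-111512708, minus strand) and MYLIP (chr6:16128965-16129034, plus strand).
MVK: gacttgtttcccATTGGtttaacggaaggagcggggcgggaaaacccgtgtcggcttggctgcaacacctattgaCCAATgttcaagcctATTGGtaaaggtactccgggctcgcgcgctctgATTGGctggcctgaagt
MVD: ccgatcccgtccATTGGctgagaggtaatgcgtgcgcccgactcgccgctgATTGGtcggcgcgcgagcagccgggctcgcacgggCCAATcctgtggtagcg
MSMO1: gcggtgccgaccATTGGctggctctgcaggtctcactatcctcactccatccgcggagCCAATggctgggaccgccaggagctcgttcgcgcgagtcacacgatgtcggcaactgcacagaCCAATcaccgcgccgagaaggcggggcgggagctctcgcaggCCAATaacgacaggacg
GGPS1: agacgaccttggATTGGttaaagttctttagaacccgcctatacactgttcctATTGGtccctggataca
STARD4: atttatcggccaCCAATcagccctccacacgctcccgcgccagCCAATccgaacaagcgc
MYLIP: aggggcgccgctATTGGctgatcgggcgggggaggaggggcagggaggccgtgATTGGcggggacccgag
MVK and MSMO1 held 4 NFY matches each, MVD held 3, and GGPS1, STARD4 and MYLIP held 2 each. A last, short set shows genes with 1 match: SC5D (chr11:121292703-121292731, plus strand), whose peak had the highest fold enrichment of the 28 TSS peaks described here, LSS (chr21:46228908-46228936, minus strand) and NPC1L1 (chr7:44541370-44541398, minus strand).
SC5D: cgccggtcgctgATTGGctggccgctcca
LSS: cgcggcgctctgATTGGttgcgtgggcgt
NPC1L1: gggctcagcctcATTGGtccctaacccag
A match describes the letters in the window and does not show that the factor was bound.

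Of the 30 genes, 28 had a TSS peak (93.3%, interval 77.9 to 99.2%), against 61% of all protein-coding genes. The 2 genes without one were INSIG1, which had no peak at all, and SOAT2, which had flank peaks only. At the strongest TSS peak of each gene, the fold enrichment is a ratio of fragments to local background, with the same constant added to each. Its median over the 28 genes was 24.0 (quartiles 19.5 and 26.7, range 10.7 to 34.3). Over all 12229 TSS peaks of protein-coding genes the median was 17.9 (quartiles 12.9 and 22.8). Of the 28 genes, 22 lay above that median and 6 lay below it, and 16 lay above the upper quartile, which 25% of these 12229 peaks exceed by definition.

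The depth behind these folds was taken as the number of fragments covering the summit, which was solved from each peak's fold and -log10 p. The 28 genes had a median of 85 fragments (quartiles 65.25 and 100.75, range 34 to 158), against 44 over all protein-coding TSS peaks. Their local background was higher too, with a median of 2.68 fragments against 1.42. The peaks were also wider, with a median of 343 bp against 278 bp, and the median -log10 q was 90.8 against 46.2. GC content within 100 bp of the summit was similar, at a median of 69.2% against 68.7%. The part of the higher local background in the fragment counts was not tested. Because of the added constant, the fold is below the plain ratio of fragments to background. At an equal plain ratio it rises with depth. The part of depth in the higher folds of the 28 genes was not tested.

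**Figure D1:**
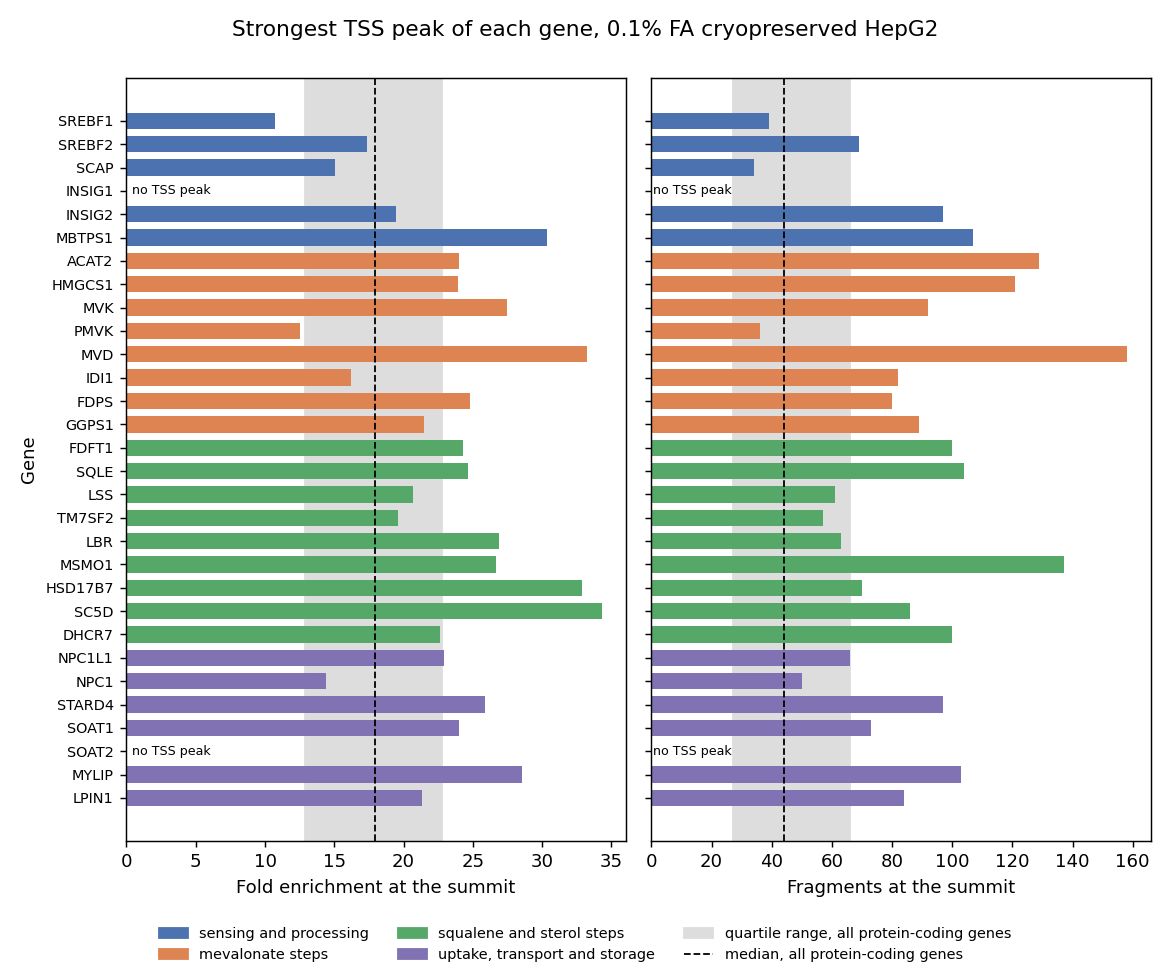
Fold enrichment (left) and fragments at the summit (right) of the strongest TSS peak of each of the 30 genes, coloured by role. The grey band spans the quartiles and the dashed line the median over all protein-coding genes with a TSS peak. Of 28 bars 22 pass the median fold of 17.9, and SREBF1 has the shortest at 10.7.

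The 28 TSS summits lay close to the start site, as did those of all protein-coding genes. The median position of the 28 was -97 bp (quartiles -152 and -27.5), where negative values are upstream. Over all protein-coding TSS peaks it was -71 bp (quartiles -133 and -28). Upstream summits were found in 22 of 28 genes, against 84.3% of all protein-coding TSS peaks. Of the 28, 20 lay within 200 bp upstream, a range that also holds the quartiles of all protein-coding TSS peaks. More than 1 TSS peak was found in 4 of the 30 genes (ACAT2, GGPS1, LSS and NPC1), against 14.2% of protein-coding genes.

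The genes that sense sterols and process SREBP had the lowest median TSS fold of the 4 roles. Of these 6 genes 5 had a TSS peak, with a median fold of 17.4, and 1 of them passed the upper quartile of all protein-coding TSS peaks. SREBF1 encodes the SREBP form best known for control of fatty acid synthesis. Its TSS peak (chr17:17836218-17836438, in intron 1) had a fold of 10.7 with 39 fragments, and its summit lay 667 bp downstream of the start. It was the lowest fold of the 28, higher than 16.1% of all protein-coding TSS peaks. SREBF2 encodes the form best known for cholesterol synthesis. Its TSS peak (chr22:41832642-41833234) had a fold of 17.4 with 69 fragments and was 593 bp wide, against the median of 343 bp.

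SREBF1 had 9 peaks, and the strongest of them was not at the annotated start. A peak in intron 1, with its summit 6047 bp downstream of the TSS, had a fold of 33.0 with 82 fragments. A further intron 1 peak, 13193 bp downstream, had a fold of 21.5 with 61 fragments, and its summit lay at -175 bp from the start of another annotated SREBF1 transcript. The peak that holds the SRE match lay upstream, with its summit at -3248 bp, a fold of 15.3 and 58 fragments, and the match centred 1 bp from the summit. SREBF2 by comparison had 2 peaks, its TSS peak and a flank peak at the TSS of TNFRSF13C with a fold of 13.6.

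SCAP, the escort protein, had a TSS peak (chr3:47475786-47476106) with a fold of 15.0 and 34 fragments, the fewest of the 28. It also had 7 gene body peaks with folds of 5.85 to 12.3, all below its TSS peak, and a flank peak with a fold of 19.8. MBTPS1 encodes the protease that makes the first cut in SREBP. Its TSS peak (chr16:84116732-84117095) had a fold of 30.3 with 107 fragments, the highest of this role, and a peak in intron 3, 20181 bp downstream, had a fold of 31.1 with 61 fragments.

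The INSIG pair, which retains SCAP in the endoplasmic reticulum, differed in peak calls at the start site. INSIG2 had a TSS peak (chr2:118088144-118088514) with a fold of 19.5 and 97 fragments, and a weak peak in intron 1 with a fold of 5.96. INSIG1 (chromosome 7, plus strand, 155297776 to 155310235) had no peak in the gene or within 20 kb. The nearest summit to its TSS lay 27510 bp away, and the nearest summit after the gene lay 34863 bp from its end. A missing call in 1 library does not show closed chromatin, and signal below the calling threshold was not analysed. All 20 of 20 tiles of 50 bp around its start occurred once in hg38. GC content over 1 kb at its start was 77.6%, the highest of the 30 genes, and the part of GC content in the missing peak was not tested.

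The 8 genes of the mevalonate steps, from acetyl-CoA to the isoprenoid units, all had a TSS peak, with a median fold of 24.0. Of them, 5 passed the upper quartile of all protein-coding TSS peaks. MVD, which makes isopentenyl diphosphate, had the highest fold of the role at 33.3 (chr16:88662990-88663385), and its 158 fragments were the most of the 28 genes. HMGCS1, the synthase that makes HMG-CoA, had a single peak (chr5:43313370-43313880) with a fold of 23.9 and 121 fragments, and its summit at -339 bp was the farthest upstream of the 28. MVK, mevalonate kinase, had a fold of 27.5 with 92 fragments (chr12:109573481-109573857). That peak also lies at the TSS of MMAB, so its signal cannot be assigned to 1 of these genes.

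ACAT2 makes acetoacetyl-CoA in the cytosol and had 3 TSS peaks, the most of the 30 genes. The strongest (chr6:159762266-159762550) had its summit 383 bp downstream with a fold of 24.0 and 129 fragments. The others had folds of 9.95 at -140 bp and 4.61 at 741 bp, so the peak nearest to the canonical start was not the strongest. The summit of the strongest lay at -67 bp from the start of another annotated ACAT2 transcript. FDPS, which makes farnesyl diphosphate, had a fold of 24.8 with 80 fragments (chr1:155308567-155308888). GGPS1, which makes geranylgeranyl diphosphate, had a fold of 21.5 with 89 fragments (chr1:235328159-235328600), at a start region shared with ARID4B.

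PMVK and IDI1 had the lowest folds of this role. PMVK, phosphomevalonate kinase, had a fold of 12.5 with 36 fragments (chr1:154936522-154936763), below a flank peak at -8224 bp with a fold of 19.0. IDI1, the isomerase of the isoprenoid units, had a fold of 16.2 (chr10:1048853-1049472). Its 82 fragments were above the all-gene median of 44, and its peak was the widest of the 28 at 620 bp.

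All 9 genes of the squalene and sterol steps had a TSS peak, with a median fold of 24.6, and the lowest of them, TM7SF2 at 19.6, was still above the all-gene median of 17.9. Of the 9, 6 passed the upper quartile. SC5D, a sterol desaturase late in the pathway, had the highest fold of all 28 genes at 34.3 with 86 fragments (chr11:121292567-121292802), higher than 99.2% of protein-coding TSS peaks. HSD17B7, a sterol ketoreductase, had a fold of 32.9 with 70 fragments (chr1:162790415-162790656). HSD17B7 has pseudogene copies. The 50 bp at its summit occurred once in hg38, as did those of all 133 peaks, and the part of the copies in the signal of its peak was not tested.

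FDFT1, squalene synthase and the first step committed to sterols, had a fold of 24.3 with 100 fragments (chr8:11802400-11802787). SQLE, which adds oxygen to squalene, had a fold of 24.6 with 104 fragments (chr8:124998113-124998608). MSMO1, a methylsterol oxidase, had a fold of 26.6 with 137 fragments (chr4:165327312-165327757). DHCR7, the reductase that yields cholesterol in 1 branch of the pathway, had a fold of 22.6 with 100 fragments (chr11:71448360-71448662). All 4 of these genes thus had at least 100 fragments at the summit, against the median of 85 over the 28 genes.

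LBR and TM7SF2 carry the same sterol reductase activity, and LBR also anchors chromatin at the nuclear lamina. LBR had a fold of 26.9 with 63 fragments (chr1:225428047-225428302), and TM7SF2 had a fold of 19.6 with 57 (chr11:65111683-65111919). LSS, which closes the sterol rings, had TSS peaks with folds of 20.7 (chr21:46228648-46229038) and 6.01. The highest fold at any peak of the 30 genes, 36.4, was at a flank peak of LSS that lies at the TSS of SPATC1L.

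Of the 7 genes of uptake, transport and storage, 6 had a TSS peak, with a median fold of 23.5, and 4 passed the upper quartile. MYLIP encodes the ubiquitin ligase that lowers lipoprotein receptors and had the highest fold of the role, 28.5 with 103 fragments (chr6:16128792-16129157). STARD4, a cytosolic sterol carrier, had a fold of 25.9 with 97 fragments (chr5:111512438-111512850). NPC1L1, the sterol uptake transporter of gut and liver, had a fold of 22.9 with 66 fragments (chr7:44541193-44541485), just above the upper quartile of 22.8.

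The SOAT enzymes, which esterify cholesterol for storage, differed in peak calls at the start site. SOAT1 had a TSS peak (chr1:179293587-179293882) with a fold of 24.0 and 73 fragments. SOAT2, the form known from liver and intestine, had none, and its nearest summit lay at -3914 bp with a fold of 11.4 and 27 fragments. All 20 of 20 tiles of 50 bp around the SOAT2 start occurred once in hg38, and GC content over 1 kb there was 59.0%. Signal below the calling threshold was not analysed here either.

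NPC1, which exports cholesterol from lysosomes, had the lowest TSS fold of the role at 14.4 with 50 fragments (chr18:23586376-23586609). Its strongest peak lay in the gene, in coding exon 8, 30160 bp downstream of the start, with a fold of 26.1 and 54 fragments. LPIN1 encodes a phosphatidate phosphatase and is a known SREBP target. Its TSS peak (chr2:11746474-11746737) had a fold of 21.3 with 84 fragments, and its 19 peaks, of which 12 lay in the gene body, were the most of the 30 genes. The annotated gene starts upstream of the canonical TSS, so body peaks from -64445 to -2358 bp lie before that TSS.

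**Figure D2:**
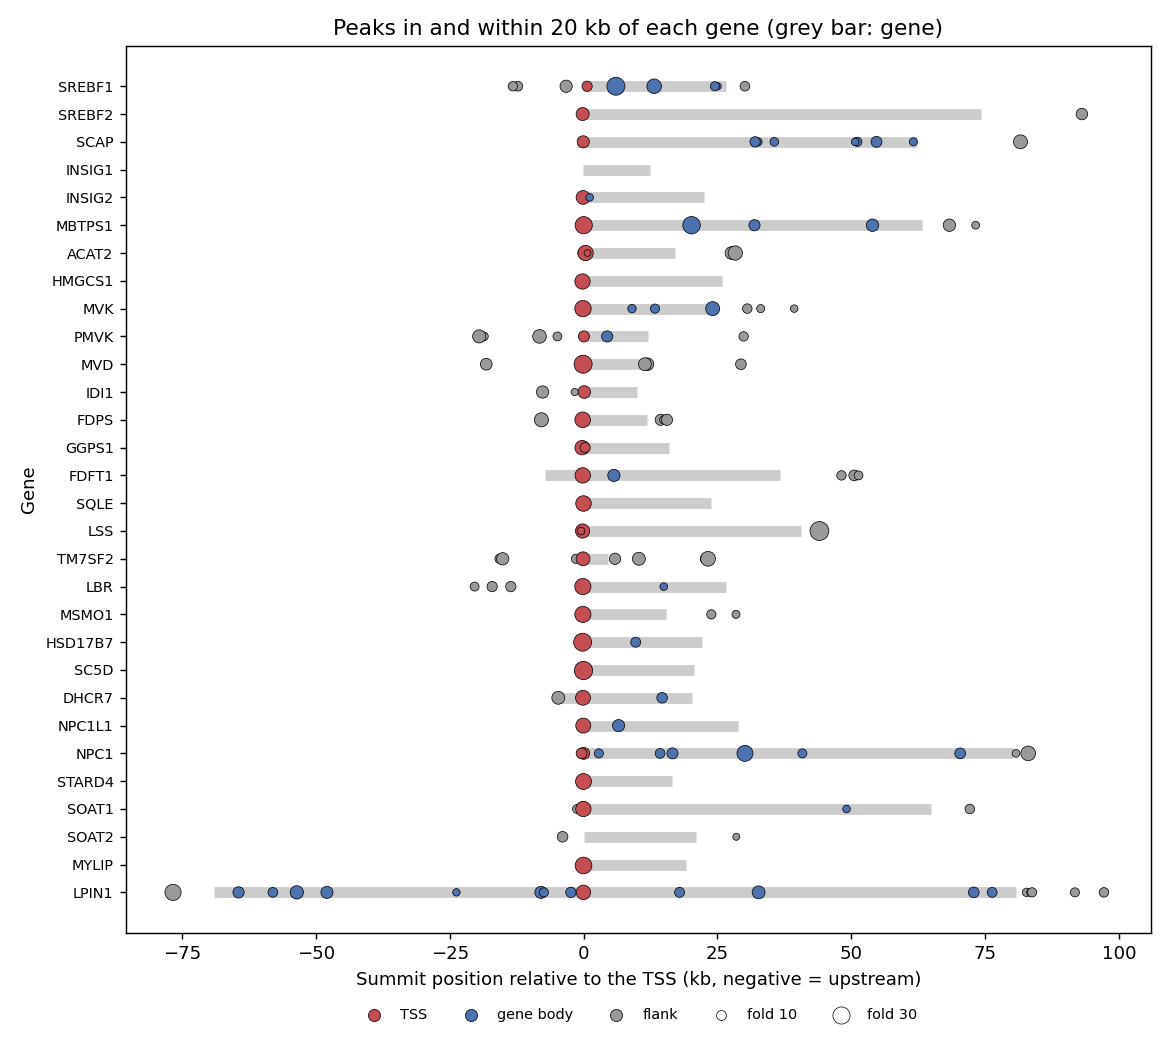
Summits of the 133 peaks by distance from the TSS in kb (negative is upstream), 1 row per gene, with the gene as a grey bar and the point area growing with fold. LPIN1 carries 19 peaks and SREBF1 9, INSIG1 carries none, and HMGCS1, SQLE, SC5D, STARD4 and MYLIP carry a TSS peak only.

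With TSS peaks included, the 30 genes had a median of 3 peaks each (range 0 to 19), against 4 for all protein-coding genes. For gene body peaks alone both medians were 0. A gene body peak was found in 14 of the 30, against 49.5% of protein-coding genes, and a flank peak in 20 of the 30, against 72.5%. These shares are near the background. Longer genes hold more body peaks, and the median length was 23.2 kb against 27.5 kb. In the 11 genes of up to 20 kb the mean was 0.0909 body peaks, against 0.301 for all genes of that length. In the 6 genes over 60 kb it was 4.83, against 2.66, and LPIN1 alone gave 12 of these peaks.

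The 43 gene body peaks had a median fold of 10.9 and a median of 18 fragments, near the medians of 10.7 and 17 over all nuclear peaks. Of them, 25 lay in introns of the canonical transcript, 5 in coding exons, 3 in UTRs and 10 outside the canonical transcript, and 10 had a summit within 1000 bp of another start of the same gene. An intron 1 peak of FDFT1, 5671 bp downstream of the TSS, was such a case, with a fold of 15.3 and its summit at -5 bp from another FDFT1 start. The 57 flank peaks had a median fold of 9.72, and 21 of them lay at the TSS of another protein-coding gene. The 36 others had a median of 8.99.

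Near the TSS summits, NFY was the motif whose share in the 28 genes was farthest above the background in percentage points. Windows of 100 bp to either side of each summit were searched on both strands for exact matches, with overlapping matches counted and palindromes counted once. A match to CCAAT was found in 20 of 28 genes (71.4%, interval 51.3 to 86.8%), against 32.6% of all protein-coding TSS peaks. More than 1 match was found in 14 of the 28 (50%), against 12.7%.

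**Figure D3:**
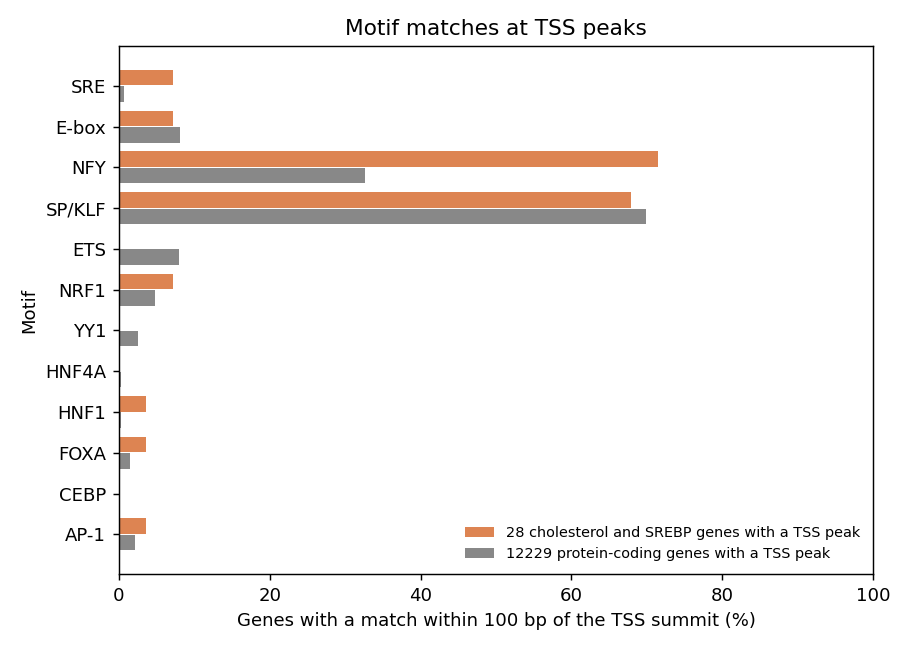
Share of genes with at least 1 match to each of 12 motifs within 100 bp of the TSS summit, in percent, for the 28 genes (orange) and the 12229 protein-coding genes whose start had a peak (grey). The NFY bar is at 71.4% against 32.6%, and the SP/KLF bars are close, at 67.9% and 69.8%.

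By role, NFY matches were found in 7 of 8 mevalonate genes, 8 of 9 squalene and sterol genes, 4 of 6 uptake, transport and storage genes and 1 of 5 sensing genes, which was SREBF2. PMVK was the mevalonate gene without a match and HSD17B7 the sterol gene without one. HSD17B7 did hold a match with a window of 200 bp, in the whole peak and in the 300 bases before the TSS, and PMVK did not. FDFT1, HMGCS1, MSMO1 and MVK held 4 matches each, and ACAT2, IDI1 and MVD held 3 each. The search window kept all 45 matches within 100 bp of the summit, and 33 of them lay within 50 bp. Their median position was -120 bp from the TSS (range -388 to 410), and 39 were upstream of it. As the windows are centred on mostly upstream summits, these positions partly follow from the search. They were not compared with those in all genes. The motif read on the gene strand in 17 and on the opposite strand in 28.

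**Figure D4:**
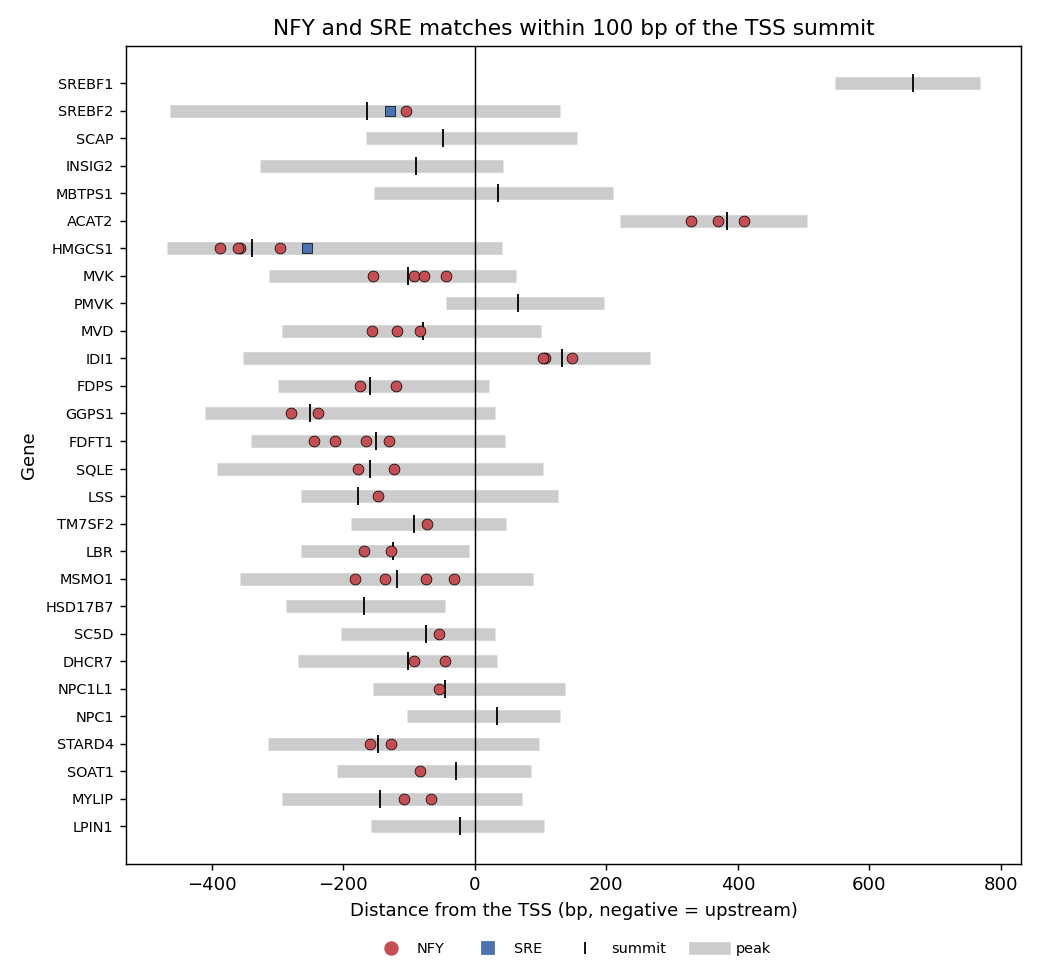
Positions of NFY (red) and SRE (blue) matches in bp from the TSS for the 28 genes with a TSS peak, with the peak as a grey bar and the summit as a tick. Of the 45 NFY matches, searched within 100 bp of the summit only, 39 lie upstream of the TSS and 33 lie within 50 bp of the summit. Those of ACAT2 and IDI1 lie downstream, as do their summits.

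NFY matches were more frequent in strong TSS peaks of all genes, so the shares were also set side by side at similar fold. When all TSS peaks were split by fold into 4 equal groups, the share of protein-coding genes with an NFY match was 18.5, 26.4, 36.7 and 49.0% from the lowest group to the highest. The counts of the 28 genes were 0 of 2, 2 of 4, 4 of 6 and 14 of 16 in the same groups. In the highest group, which holds most of the 28, this was 87.5% against 49.0%.

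**Figure D5:**
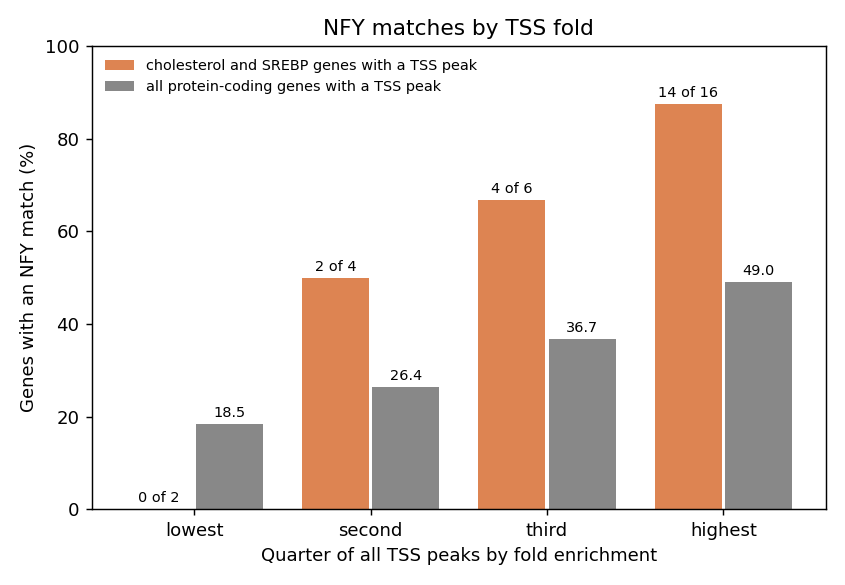
Share of genes with an NFY match within 100 bp of the TSS summit, in percent, in 4 groups of TSS peaks of rising fold enrichment. Bars of the 28 genes (orange) carry their counts, and in the highest group they stand at 14 of 16 against 49.0% of all genes (grey).

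The SRE was rare in all genes. An exact match to TCACNCCAC lay within 100 bp of the TSS summit of 2 of the 28 genes, SREBF2 and HMGCS1 (7.14%, interval 0.877 to 23.5%), against 0.63% of all protein-coding TSS peaks. Both windows also held an NFY match, a combination found in 0.221% of all windows. The distance between centres of the SRE and the nearest NFY match was 25 bp in SREBF2 and 41 bp in HMGCS1. In the upstream SREBF1 peak it was 23 bp. The SRE match of SREBF2 was centred at -129 bp from the TSS and that of HMGCS1 at -255 bp. No SRE match was found in the 43 gene body peaks, and the SREBF1 peak held the only match in the 57 flank peaks.

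With 1 mismatch allowed, an SRE-like sequence was found in 10 of the 28 genes (35.7%), against 15.6% of all TSS peaks. These were SREBF2, ACAT2, HMGCS1, MVK, IDI1, FDPS, FDFT1, MSMO1, HSD17B7 and SC5D, none of them a gene of uptake, transport and storage.

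The SP/KLF motif, GGGCGG, was found in 19 of 28 genes (67.9%, interval 47.6 to 84.1%), near the 69.8% of all TSS peaks. In the 300 bases before the TSS, a window that needs no peak, it was found in 27 of all 30 genes (90%), against 60.8% of protein-coding genes, so this comparison depends on the window. By role, the summit windows held it in 8 of 9 squalene and sterol genes and in 3 of 8 mevalonate genes. It was also in 5 of 6 uptake, transport and storage genes and in 3 of 5 sensing genes. The 300 bases before the TSS held it in every mevalonate gene and in every squalene and sterol gene, so the split by role depends on the window too. Neither SRE window at a TSS summit held this motif, but the 300 bases before the TSS did in both genes, SREBF2 and HMGCS1. The E-box CACGTG, which SREBP proteins can also bind, was found in SCAP and SC5D, 2 of 28 against 8.05%.

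Matches to 3 other promoter motifs were found in at most 2 of the 28 genes each. The ETS motif CCGGAAGT was found in none of the 28 windows (interval 0 to 12.3%, which holds the background of 8.02% of all TSS peaks), and the YY1 motif AAGATGGCG in none, against 2.58%. The NRF1 motif GCGCATGC was found in SREBF1 and SCAP, 2 of 28 against 4.85%. Exact matches to motifs of liver factors were rare in both sets. The words searched for these factors are longer than CCAAT, and sites that differ from them were not counted. HNF4A (CAAAGTCCA) was in 0 of 28 against 0.319%, CEBP (TTGCGCAA) in 0 against 0.18%, HNF1 (GTTAATNAT) in NPC1L1 only against 0.303%, and FOXA (TGTTTAC) in MBTPS1 only against 1.42%. The AP-1 motif TGANTCA was in LBR only, against 2.21%.

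The 2 genes without a TSS peak were searched over the 300 bases before the TSS. INSIG1 held 1 NFY, 5 SP/KLF and 1 E-box match and no SRE match, and SOAT2 held none of these. In the same window, which does not depend on a peak, NFY was found in 21 of all 30 genes (70%), against 37.9% of all protein-coding genes. The E-box was found in 4 (13.3%) against 8.89%, and the SRE in 2 (6.67%) against 1.19%, again SREBF2 and HMGCS1.

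The rest of the pathway was described from a list of 16 other genes of sterol synthesis, sensing and transport. A TSS peak was found in 15 of 16, all but IDI2, a paralogue of IDI1 that is known from muscle. Their median fold was 23.9, close to the 24.0 of the 28 genes. Among the highest were ACAT1, the mitochondrial counterpart of ACAT2, at 36.0, TMEM97 at 30.6 and STARD5 at 29.2. NFY matches were found in 7 of these 15 (46.7%), SP/KLF matches in 14 (93.3%) and an SRE match in none. Over all protein-coding TSS peaks the shares were 32.6, 69.8 and 0.63%. The NFY share of the 28 genes was 71.4%. As a check of the label, all 8 of 8 hepatocyte marker genes had a TSS peak, with a median fold of 16.2 (range 10.1 to 25.4), and 0 of 8 markers of blood, endothelial, fibroblast, nerve and heart muscle cells had one. The hepatocyte markers held an NFY match in 5 of 8 (62.5%), an SP/KLF match in 3 (37.5%) and an SRE match in 1 (SERPINA1, 12.5%).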

How the data were processed

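ATAC-seq was performed by the authors on HepG2 cells. They used cutadapt for trimming, Bowtie2 within snakePipes for mapping to GRCh38 and samtools to drop duplicates, and peaks were called with MACS2 on this library alone. The submitters' processing notes also name bcl2fastq and deepTools 3.5.5. Not given in the sources used here are the MACS2 version and any Tn5 shift. A shift would move summits by a few bases. By their names, the peaks came from short fragments. The deposited list gives each peak a score (a rounded form of the -log10 q-value). The authors also deposited the fold enrichment at the summit, with its -log10 p and -log10 q-value. This fold was read as a ratio to local background with the same constant added to each term. The score was not used for any result.

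Peaks were placed on GENCODE 44 genes (20033 protein-coding) by summit, with a TSS window of 1000 bp and a flank of 20 kb, and the strongest TSS peak per gene was used. Fragments were solved as whole numbers from the fold and -log10 p, and 99.7% of nuclear peaks gave one within 0.01. For this, the fold was taken as fragments plus 1 over background plus 1. Motif windows were 100 bp to either side of the summit. The total of sequenced fragments was not used, so depth is known only at summits. Placement, fragment solving and motif search were tested on simulated data. All 30 genes are named; of the other pathway genes, the 4 with the highest fold and those lacking a TSS peak are, except 1 that is not reported here. The genes and lists were chosen with earlier results of these data known. Alternatives were other windows, flanks, q-value minimums, transcript starts and motif settings. Scripts ran in Python 3.11.15 with pysam 0.24.0, samtools 1.23.1, scipy 1.17.1, numpy 2.4.6, matplotlib 3.10.9 and pandas 2.3.3.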

Additional observations from a re-analysis of the deposited data

How the results depend on the processing

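Of the alternatives to the counts, shares and medians over the 30 genes, 21 stayed near the reported value and 4 moved. The number of assigned peaks was 228 with a flank of 50 kb and 87 when the nearest protein-coding TSS had to be that of 1 of the 30 genes, both by construction. The SRE was found in 1 gene (SREBF2) with a window of 50 bp and in 10 genes with 1 mismatch allowed, so the count of 2 rests on the window and on an exact match. Of the alternatives for the fold of single genes, 82 stayed and 1 moved, ACAT2, at 9.95 when the peak nearest to the TSS was taken. Most of these could hardly move, because only 4 of the 30 genes had more than 1 TSS peak. For a gene with 1, a window of 500 bp or the nearest peak could return only that peak or none. The q-value minimums of 5 and 10 could not change the share with a TSS peak, as the lowest -log10 q of the 28 strongest TSS peaks was 28.5. With a TSS window of 500 bp, SREBF1 also lacked a TSS peak, which left 27 of 30 (90%) against 58.3% of all protein-coding genes. NFY matches were found in 64.3% against 24.6% with a window of 50 bp, 75% against 41.3% with 200 bp and 75% against 36.8% in the whole peak. The NFY windows, the 300-base window and the mismatch were chosen after seeing the data. No paired analysis was possible because the values come from the peak list of 1 library, and for the same reason no replicate could be left out.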
